A study of Mus musculus with 46 samples.

Results

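The unfolded protein response of the endoplasmic reticulum (ER) was followed through 10 genes, taken by symbol from the 55487 genes listed in each mouse library. They are the stress sensors Ern1 and Atf6, the transcription factor gene Xbp1, the chaperone and folding genes Hspa5, Hsp90b1, Pdia4, Dnajb9, Sdf2l1 and Creld2, and the degradation gene Herpud1. Each symbol matched 1 identifier, and all 10 passed the filter on low counts in all 3 experiments. On GRCm38, by GENCODE M21, the sensor and Xbp1 genes lie as follows: Ern1 at chr11:106394650-106487852 (minus), Atf6 at chr1:170704674-170867771 (minus) and Xbp1 at chr11:5520659-5525893 (plus). The folding genes are Hspa5 at chr2:34771970-34777547 (plus), Hsp90b1 at chr10:86690209-86705509 (minus), Pdia4 at chr6:47796141-47813430 (minus), Dnajb9 at chr12:44205559-44210326 (minus), Sdf2l1 at chr16:17130138-17132383 (minus) and Creld2 at chr15:88819646-88826683 (plus), and Herpud1 at chr8:94386438-94395377 (plus) is the degradation gene.

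The study, by its title, concerns signals from mitochondria and the identity of metabolic tissues. RNA was sequenced in 46 libraries that fall into 11 groups. Islets labelled Tfam control gave 5 female and 3 male libraries, and islets labelled Tfam KO gave 4 female and 2 male libraries. Islets of the Clec16a experiment, labelled Clec control or Clec KO, came from 4 control and 4 KO samples on RFD and from 6 control and 5 KO samples on HFD. The livers gave 6 control, 4 Mfn DKO and 3 Tfam KO libraries, and the descriptions of all 3 liver groups begin with AAVliver. The labels do not write out HFD, RFD or AAV. They give no strain, age, Cre driver or vector, and no sex for the Clec16a islets or the livers. Islets had been cultured overnight after isolation, whereas livers had been frozen directly. The titles number the samples as biological replicates but do not say whether each is 1 animal, so p-values measure the spread between these samples.

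ER stress is sensed by 3 proteins of the ER membrane. IRE1, the product of Ern1, cuts the Xbp1 transcript so that it encodes an active transcription factor, and ATF6 is cut in the Golgi to release another. The third sensor, PERK (Eif2ak3), phosphorylates the initiation factor eIF2 and raises translation of ATF4, whose targets include Ddit3 (CHOP), Trib3 and enzymes of serine and amino acid synthesis. Other kinases that respond to mitochondrial stress or amino acid shortage reach ATF4 by the same phosphorylation. The ER chaperone genes are targets of the ATF6 and XBP1 arms, so they are read here beside an ATF4 list. β cells carry a heavy folding load because they make proinsulin. Gene counts do not separate the spliced from the unspliced Xbp1 transcript.

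RefSeq start regions were found for 9 of the 10 genes, all but Atf6, on GRCm38.p6. The 250 bases before the start of each were searched on both strands for 4 motifs: the ER stress element ERSE (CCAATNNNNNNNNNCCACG), ERSE-II (ATTGGNCCACG), the UPRE core TGACGTG and the C/EBP-ATF element TGATGNAA. ERSE and ERSE-II share the letters CCACG. ERSE stood before Hspa5, Hsp90b1 and Creld2, and 37 of 32851 RefSeq windows of this length (0.113%) held it. ERSE-II stood before Herpud1 (10 windows, 0.0304%), the UPRE core before Hspa5 (542 windows, 1.65%) and the C/EBP-ATF element before Herpud1 (1134 windows, 3.45%). None of the 4 was found before Ern1, Xbp1, Dnajb9, Pdia4 or Sdf2l1. A match describes the letters and does not show binding. The 4 regions with a match are shown because they carry these letters, and that of Ern1 because Ern1 changed most often below while none of the 4 motifs was found there. Capitals mark the fixed letters of a match in either orientation, and each sequence reads 5′ to 3′ along the gene: Hspa5 at chr2:34771840-34772089 (plus strand), Hsp90b1 at chr10:86705445-86705694 (minus), Creld2 at chr15:88819396-88819645 (plus), Herpud1 at chr8:94386179-94386428 (plus) and Ern1 at chr11:106487797-106488046 (minus).
Hspa5: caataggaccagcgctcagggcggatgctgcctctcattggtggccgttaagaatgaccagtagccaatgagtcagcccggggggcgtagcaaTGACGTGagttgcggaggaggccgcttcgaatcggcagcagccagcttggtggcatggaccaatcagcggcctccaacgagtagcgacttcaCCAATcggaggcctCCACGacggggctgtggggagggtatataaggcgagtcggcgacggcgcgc
Hsp90b1: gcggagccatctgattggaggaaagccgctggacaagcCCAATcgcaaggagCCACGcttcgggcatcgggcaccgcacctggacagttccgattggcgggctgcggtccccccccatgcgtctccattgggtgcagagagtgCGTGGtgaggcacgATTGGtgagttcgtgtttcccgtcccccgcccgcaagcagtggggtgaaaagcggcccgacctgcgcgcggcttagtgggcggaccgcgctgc
Creld2: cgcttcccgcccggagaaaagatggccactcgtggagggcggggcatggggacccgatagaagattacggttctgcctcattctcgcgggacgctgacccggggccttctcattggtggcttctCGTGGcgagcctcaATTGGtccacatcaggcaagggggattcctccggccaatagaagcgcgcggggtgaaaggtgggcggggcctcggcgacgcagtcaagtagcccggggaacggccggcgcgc
Herpud1: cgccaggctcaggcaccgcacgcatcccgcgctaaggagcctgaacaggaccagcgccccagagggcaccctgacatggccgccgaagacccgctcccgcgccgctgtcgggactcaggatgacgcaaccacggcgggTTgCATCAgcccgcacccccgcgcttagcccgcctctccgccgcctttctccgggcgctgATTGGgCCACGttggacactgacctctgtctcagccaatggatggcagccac
Ern1: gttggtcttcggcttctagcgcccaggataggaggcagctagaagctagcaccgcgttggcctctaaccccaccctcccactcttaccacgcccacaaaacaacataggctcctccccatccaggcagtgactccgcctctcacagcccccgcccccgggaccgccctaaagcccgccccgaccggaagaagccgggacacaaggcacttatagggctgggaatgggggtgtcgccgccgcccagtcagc
The ERSE of Hspa5 ran from 65 to 47 bases before the RefSeq start, which lies inside the GENCODE span given above. RefSeq and GENCODE place some starts differently, and the regions of Hspa5, Hsp90b1 and Ern1 overlap the GENCODE spans of these genes. Hsp90b1 held 2, from 212 to 194 on the gene's strand and from 107 to 89 on the other strand. The ERSE of Creld2 ran from 126 to 108 on the other strand, and the ERSE-II of Herpud1 from 52 to 42.

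Depth, as the summed count of a library, lay between 55223041 and 83342809 for Tfam islets, between 16235173 and 55810879 for Clec16a islets and between 41961114 and 56894510 for livers. No pair of libraries was identical. Transcripts of the targeted genes matched the labels in 2 experiments: Tfam fell by 1.21 on the log2 scale in Tfam KO islets (SE 0.06) and by 2.0 in Tfam KO liver (SE 0.11), and in Mfn DKO liver Mfn1 fell by 2.0 (SE 0.15) and Mfn2 by 2.04 (SE 0.16). Clec16a counts did not show the Clec16a genotype, with log2 changes of 0.13 on RFD (adjusted p = 0.612, edgeR) and 0.08 on HFD (adjusted p = 0.740). A count over the whole gene need not show a deletion of some exons, so the labels "Clec KO" stand unchecked by RNA. All 8 β-cell markers were detected in every islet group and all 6 hepatocyte markers in every liver group. Detection alone does not separate the tissues, since at least 5 hepatocyte markers were above 0 in every islet group. Hepatocyte sums reached 11641 TPM in islets and were at least 40425 in livers. β-cell sums reached 177 TPM in livers and were at least 246588 in islets.

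Levels of different genes were compared on the authors' TPM, which is per length. In the 8 Tfam control islet libraries Hspa5, the ER form of the Hsp70 chaperone (BiP), stood highest at 993 ± 148 TPM (SD, n = 8). Hsp90b1, the ER form of Hsp90, followed at 634 ± 101 TPM. Dnajb9 (346 ± 73.7) and Sdf2l1 (287 ± 133) did not differ beyond their spread. Nor did Xbp1 (225 ± 11.3), Pdia4 (222 ± 42.2) and Herpud1 (197 ± 57.3), and Creld2 stood at 144 ± 49.8. The sensors came last, Ern1 at 55.9 ± 8.55 and Atf6 at 44.0 ± 8.94. In the 6 control livers the order began with Herpud1 (512 ± 126 TPM, SD, n = 6) and Hspa5 (509 ± 167), which did not differ beyond their spread, and Hsp90b1 stood at 385 ± 77.5. Pdia4 (194 ± 49.5), Xbp1 (149 ± 21.7) and Creld2 (108 ± 69.9) came next, then Dnajb9 (79.3 ± 27.5) and Sdf2l1 (67.0 ± 35.4). Ern1 (18.8 ± 1.94) and Atf6 (18.5 ± 1.54) were again lowest. Levels across the 2 tissues come from separate experiments and were not tested against each other.

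Below, a value per library is a CPM, computed on library sizes scaled by TMM (trimmed mean of M-values) within an experiment. A gene counted as called when its adjusted p did not exceed 0.05 in edgeR's quasi-likelihood test with Benjamini-Hochberg adjustment over all genes tested, and "rose" and "fell" are used only of called genes.

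In Tfam KO islets 1 of the 10 genes rose and 4 fell: Ern1 rose 1.98-fold, while Dnajb9, Xbp1, Pdia4 and Sdf2l1 were lower than in controls. Of all 19752 genes tested, 11.6% rose and 9.29% fell. The median log2 change of the 10 genes was -0.26, beside -0.01 over all genes. In bulk tissue, fewer cells of a type and less RNA per cell cannot be told apart.

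Ern1, the sensor kinase and RNase, stood at 220, 205, 254, 182 and 208 CPM in the 5 female controls and at 209, 221 and 209 in the 3 male controls. The KO libraries stood at 454, 394, 429 and 402 CPM in females and at 447 and 416 in males. Every KO library was above every control. The log2 change was 0.99 (SE 0.07, a fold of 1.98, adjusted p = 3.65e-08, edgeR), 0.97 in females and 1.02 in males. Atf6, the other sensor among the genes, had a log2 change of 0.25 (SE 0.09, adjusted p = 0.0532, edgeR) and was not called. Its controls ran from 128 to 220 CPM (median 194) and its KO libraries from 209 to 236 (median 224).

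Xbp1, the target of IRE1 and itself a driver of ER chaperone genes, stood at 317, 331, 322, 398 and 341 CPM in female controls and at 347, 348 and 347 in male controls. In the KO it stood at 244, 270, 251 and 276 CPM in females and at 255 and 259 in males. The groups did not overlap, and Xbp1 fell by 0.41 on the log2 scale (SE 0.06, adjusted p = 0.000137, edgeR). It was called lower in females (-0.39, SE 0.08) and in males (-0.44, SE 0.10). The male call was lost without male control 2 or without either male KO library, with adjusted p from 0.052 to 0.121. Xbp1 stood at 225 ± 11.3 TPM in the controls (SD, n = 8) and at 222 ± 9.24 in the KO (SD, n = 6), so on the TPM scale, which has no TMM step, the means differed by less than their spread.

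Dnajb9 (ERdj4), a cochaperone of BiP that also binds IRE1, stood at 355, 346, 372, 369 and 380 CPM in female controls and at 534, 516 and 435 in male controls. KO libraries had 241, 234, 195 and 254 CPM in females and 266 and 240 in males. No KO library reached a control of either sex. Dnajb9 fell by 0.77 on the log2 scale (SE 0.08, adjusted p = 3.98e-06, edgeR), by 0.66 in females and by 0.97 in males. Male controls lay above female controls for this gene, but the difference in the effect between the sexes, -0.31 (SE 0.15), was not called (adjusted p = 0.813).

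Pdia4, a protein disulfide isomerase, stood at 219, 204, 339, 261 and 231 CPM in female controls and at 284, 256 and 209 in male controls. KO values were 158, 183, 192 and 207 CPM in females and 174 and 173 in males. A single KO library lay above the lowest control, and Pdia4 fell by 0.47 (SE 0.11, adjusted p = 0.00538, edgeR). In TPM, without the TMM step, Pdia4 stood at 210 ± 18.8 in the KO and 222 ± 42.2 in controls (SD), within the spread. Sdf2l1, a partner of ER DnaJ proteins, varied more among controls: 74.2, 67.5, 293, 227 and 146 CPM in females and 140, 153 and 118 in males. The KO values were 54.7, 95.9, 93.0 and 92.1 CPM in females and 61.3 and 78.7 in males. The groups overlapped through 2 female controls, and Sdf2l1 fell by 0.95 (SE 0.28, adjusted p = 0.0228, edgeR). That call was lost without female KO library 1 (adjusted p = 0.0542) or without male KO library 1 (adjusted p = 0.0564).

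The remaining 4 genes were not called in Tfam KO islets. BiP itself, Hspa5, ran from 1556 to 2445 CPM in controls (median 2026) and from 1722 to 2123 in the KO (median 1851). Its log2 change was -0.06 (SE 0.10). On total counts without TMM it was 0.15 (SE 0.09), and in TPM the KO mean was 1250 ± 108 (SD, n = 6) against 993 ± 148. The direction of Hspa5 therefore depended on the scaling. In TPM the KO means of Hsp90b1 (705 ± 44.5) and Creld2 (155 ± 10.8) also lay above the control means. Those were 634 ± 101 and 144 ± 49.8, so the means differed by less than the control SD. The log2 changes that follow are with TMM. Hsp90b1 had a log2 change of -0.24 (SE 0.09, adjusted p = 0.0624, edgeR), Creld2, a disulfide isomerase-like secreted protein, -0.28 (SE 0.18, adjusted p = 0.292) and Herpud1, a membrane adaptor of ER-associated degradation, 0.18 (SE 0.12, adjusted p = 0.327).

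**Figure D1:**
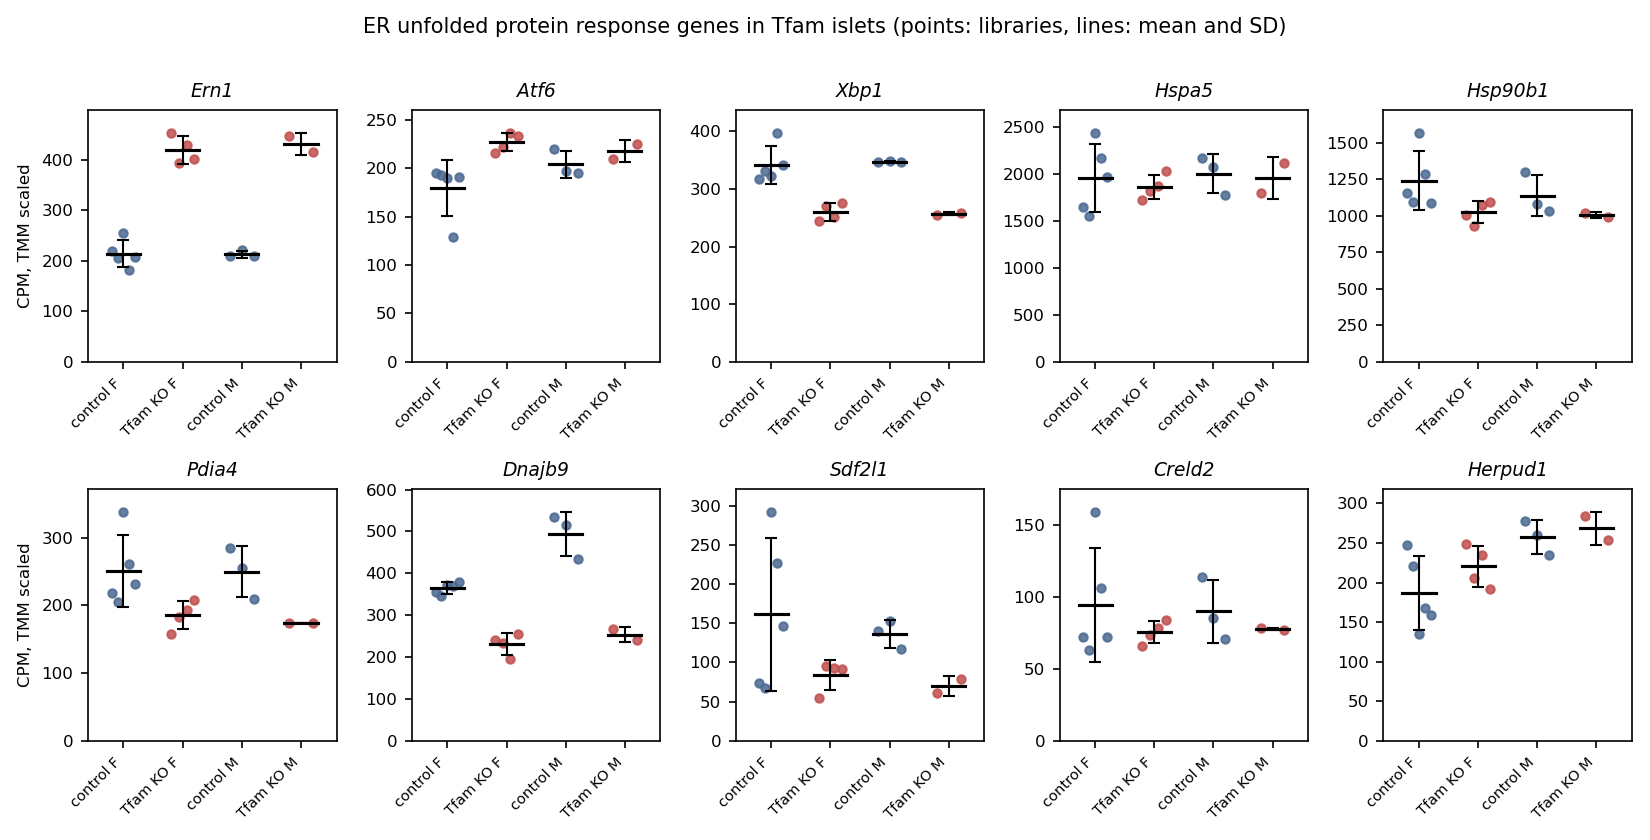
Each panel plots 1 gene in the Tfam islets, with the TMM-scaled CPM on the y axis, points for libraries, and black lines for the group mean ± SD. Ern1 is higher in all 6 KO libraries (394 to 454 CPM) than in the 8 controls (182 to 254 CPM), Xbp1 and Dnajb9 are lower in all 6, and the Hspa5 groups overlap.

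Within females 1 gene was called higher and 2 lower (6.67% and 4.17% of all genes), and within males again 1 higher and 2 lower (5.24% and 3.69%). In each sex these were Ern1, Xbp1 and Dnajb9. No gene of the 10 was called for a difference in the effect between the sexes by edgeR (0% of all genes) or by DESeq2, and 0 had an unadjusted p below 0.05.

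The scale bears on these counts. The 2 insulin genes held 15.9% to 22.8% of all counts in Tfam control islets and 10.1% to 13.4% in the KO. On total counts without TMM, the median log2 change of all genes moved to 0.20 and 91.0% of called genes were higher, beside 55.5% with TMM. Ern1 (1.19), Dnajb9 (-0.56), Xbp1 (-0.20) and Sdf2l1 (-0.73) were still called, Pdia4 was not (-0.26, adjusted p = 0.0640, edgeR), and Atf6 (0.45) and Herpud1 (0.38) were called higher. The same step moved the median of all genes to 0.12 in the Clec16a KO on HFD, to 0.21 in Mfn DKO liver and to 0.46 in Tfam KO liver. It put 83.5%, 82.3% and 88.9% of called genes on the higher side there, beside 58.7%, 53.0% and 61.6%. Without TMM, Xbp1 was no longer called within females (-0.18) or males (-0.24), and Pdia4 was no longer called in Tfam KO liver (-0.29, adjusted p = 0.242, edgeR).

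Markers of other cell types differed between the Tfam groups. The summed level of 5 B-cell and plasma-cell markers, all 5 detected, ran from 20.6 to 146 TPM in control islets and from 7.68 to 21.4 in the KO. Plasma cells express several of the 10 genes strongly. With the score of these markers as a covariate 3 of the genes were called: Ern1 (1.08), Dnajb9 (-0.73) and Xbp1 (-0.44). Pdia4 (-0.19, adjusted p = 0.268, edgeR) and Sdf2l1 (-0.48, adjusted p = 0.390) were not. Of all 19752 genes tested, 2440 were called with this score and 4119 without it. The marker sums of KO and control barely overlapped, so marker level and genotype cannot be told apart. Acinar markers, 11 of 11 detected, summed to 1819 to 13868 TPM in controls and 3464 to 38552 in the KO, and β-cell markers to 322297 to 454623 TPM in controls and 246588 to 311538 in the KO. With the acinar score as a covariate the 5 calls held and Atf6 (0.26) and Hsp90b1 (-0.24) were called as well, beside 4299 calls over all genes. Endothelial markers, all 7 detected but for 1 in male KO, summed to 142 to 195 TPM in controls and 197 to 259 in the KO, which did not overlap. Fibroblast or stellate markers summed to 6.66 to 16.7 TPM in controls and 14.9 to 27.8 in the KO, duct markers to 259 to 348 and 329 to 432, and macrophage markers to 252 to 439 and 380 to 516. α-cell markers, 3 of 3 detected, summed to 34629 to 46405 TPM in male controls and 70065 to 87546 in male KO, which did not overlap. In females they overlapped (70420 to 114055 and 72914 to 96545). The part of the α-cell, β-cell, endothelial, fibroblast, duct and macrophage marker sums in these results was not tested.

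Other ER genes were read from lists. Of 26 further folding genes 2 rose and 13 fell in Tfam KO islets, where 11.6% of all genes rose and 9.29% fell (median -0.31, beside -0.01 over all genes). Ero1lb, the β-cell-enriched ER oxidase gene, fell by 0.94 (SE 0.09, adjusted p = 2.2e-06, edgeR), its paralog Ero1l rose by 0.60 (SE 0.07) and Txndc11 fell by 0.57 (SE 0.07). The count of called folding genes was 7 on total counts without TMM and 7 with the B-cell and plasma-cell score. Over all 19752 genes these fits called 6825 and 2440, and the main fit 4119. Of 21 degradation genes 3 rose and 7 fell, and the 3 with the smallest adjusted p all rose: Sel1l by 0.81 (SE 0.06), Edem1 by 0.61 (SE 0.07) and Derl1 by 0.54 (SE 0.06). Of 23 translocation genes none rose and 6 fell, among them Sec62 (-0.39, SE 0.07), Sec61a1 (-0.36, SE 0.07) and Spcs2 (-0.42, SE 0.09). Of 12 further sensors and regulators 3 rose and 3 fell: Mbtps2, the protease that completes ATF6 cleavage, rose by 0.50 (SE 0.07), Tmbim6, a binding partner of IRE1, rose by 0.46 (SE 0.07), and Creb3l2 fell by 0.46 (SE 0.08).

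Nearly all genes of the ATF4 branch were higher. Of its 25 genes 24 rose in Tfam KO islets and none fell (median 1.22, range 0.04 to 5.25). Ddit3 rose by 2.80 (SE 0.14, adjusted p = 1.21e-09, edgeR), Trib3, a pseudokinase, by 5.25 (SE 0.30) and Nupr1 by 4.89 (SE 0.29). Eif2ak3, the PERK gene, fell by 0.28 (SE 0.07, adjusted p = 0.0062). Of 14 mitochondrial proteases and chaperones 7 rose and none fell, led by the matrix protease Lonp1 (1.83, SE 0.05), the matrix Hsp70 Hspa9 (1.47, SE 0.07) and its cochaperone Dnaja3 (0.81, SE 0.06).

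**Figure D2:**
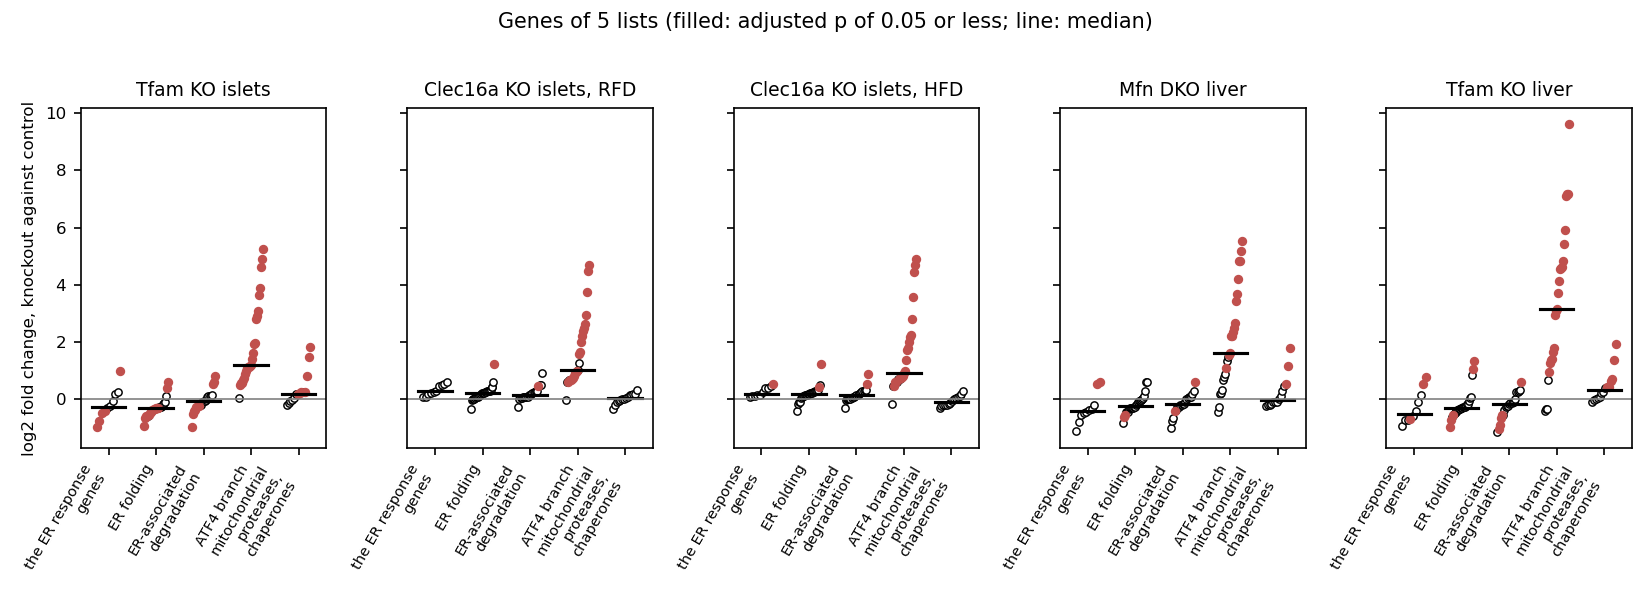
Each panel is 1 knockout against its controls, with log2 fold changes on the y axis, points for genes, filled points for called genes (adjusted p not above 0.05), and a black line for the median of a list. The ATF4 branch has a median from 0.91 to 3.15, while the medians of the 10 ER response genes lie from -0.50 to 0.29.

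In the Clec16a islets Ern1 was again the gene with a call. On HFD 1 of the 10 genes rose and none fell, beside 5.62% and 3.95% of 17254 genes. On RFD none was called (edgeR), beside 3.99% higher and 3.54% lower. DESeq2's Wald test called Ern1 on RFD, and 4 had an unadjusted p below 0.05. The log2 changes of all 10 genes were above 0 on each diet, with medians of 0.29 on RFD and 0.20 on HFD beside -0.00 over all genes on each. This did not hold within each sequencer lane. In lane 8 on HFD (3 KO and 3 control libraries) the differences ran from -0.20 for Pdia4 to 0.52 for Ern1. Hspa5 (-0.15), Hsp90b1 (-0.05), Xbp1 (-0.02), Atf6 (-0.14), Dnajb9 (-0.03) and Sdf2l1 (-0.04) were below 0 there too. In lane 7 on HFD (2 and 3) all were above 0, from 0.31 for Hsp90b1 to 0.90 for Dnajb9. In lane 7 on RFD Hsp90b1 (-0.01) and Xbp1 (-0.04) were below 0.

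On HFD Ern1 ran from 130 to 194 CPM in the 6 controls (median 142) and stood at 202, 227, 269, 165 and 213 in the 5 KO libraries. The groups overlapped through control 4, the highest control, and KO library 4, the lowest KO. Ern1 rose by 0.53 (SE 0.13, adjusted p = 0.0160, edgeR). Without KO library 3 the change was 0.44 (adjusted p = 0.0726) and the call was lost. Within lane 7 of the sequencer the difference was 0.53 (2 KO and 3 control libraries) and within lane 8 it was 0.52 (3 and 3). On RFD Ern1 stood at 121, 134, 161 and 177 CPM in controls and at 213, 247, 165 and 201 in the KO, with a log2 change of 0.48 (SE 0.16, adjusted p = 0.0712, edgeR). The RFD groups overlapped through KO library 3, the lowest KO, and control 4. With the lane as a term the RFD change was 0.53 and was called (adjusted p = 0.0383, edgeR), and within lanes 7 and 8 it was 0.59 (3 KO and 2 control libraries) and 0.55 (1 and 2).

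KO library 4 on HFD stood apart, with the lowest value of its group for 9 of the 10 genes, all but Sdf2l1. Herpud1 stood at 192 CPM in that library and at 359, 388, 414 and 422 in the other 4, and Atf6 at 118 against 159, 156, 164 and 152. Dnajb9 stood at 128 CPM there and at 308, 315, 335 and 271 in the others. Without it 3 genes were called on HFD: Ern1 (0.62), Herpud1 (0.54, adjusted p = 0.00137, edgeR) and Creld2 (0.57, adjusted p = 0.0195). Calls over all genes were not counted in that fit.

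Creld2 stood at 111, 90.3, 90.2, 65.4 and 89.7 CPM in the HFD KO and ran from 53.9 to 80.3 in its controls (median 62.7). Every other KO library than number 4 lay above every control. With all libraries its log2 change was 0.48 (SE 0.17, adjusted p = 0.0783, edgeR), and on RFD it was 0.52 (SE 0.20, adjusted p = 0.114). Hspa5 ran from 813 to 1864 CPM in HFD controls and from 1187 to 1616 in the HFD KO, with a log2 change of 0.15 (SE 0.18). The spread among the controls was wider than the difference. Of the remaining genes, log2 changes on HFD ran from 0.08 for Atf6 to 0.41 for Dnajb9 (SE 0.24), and none was called.

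**Figure D3:**
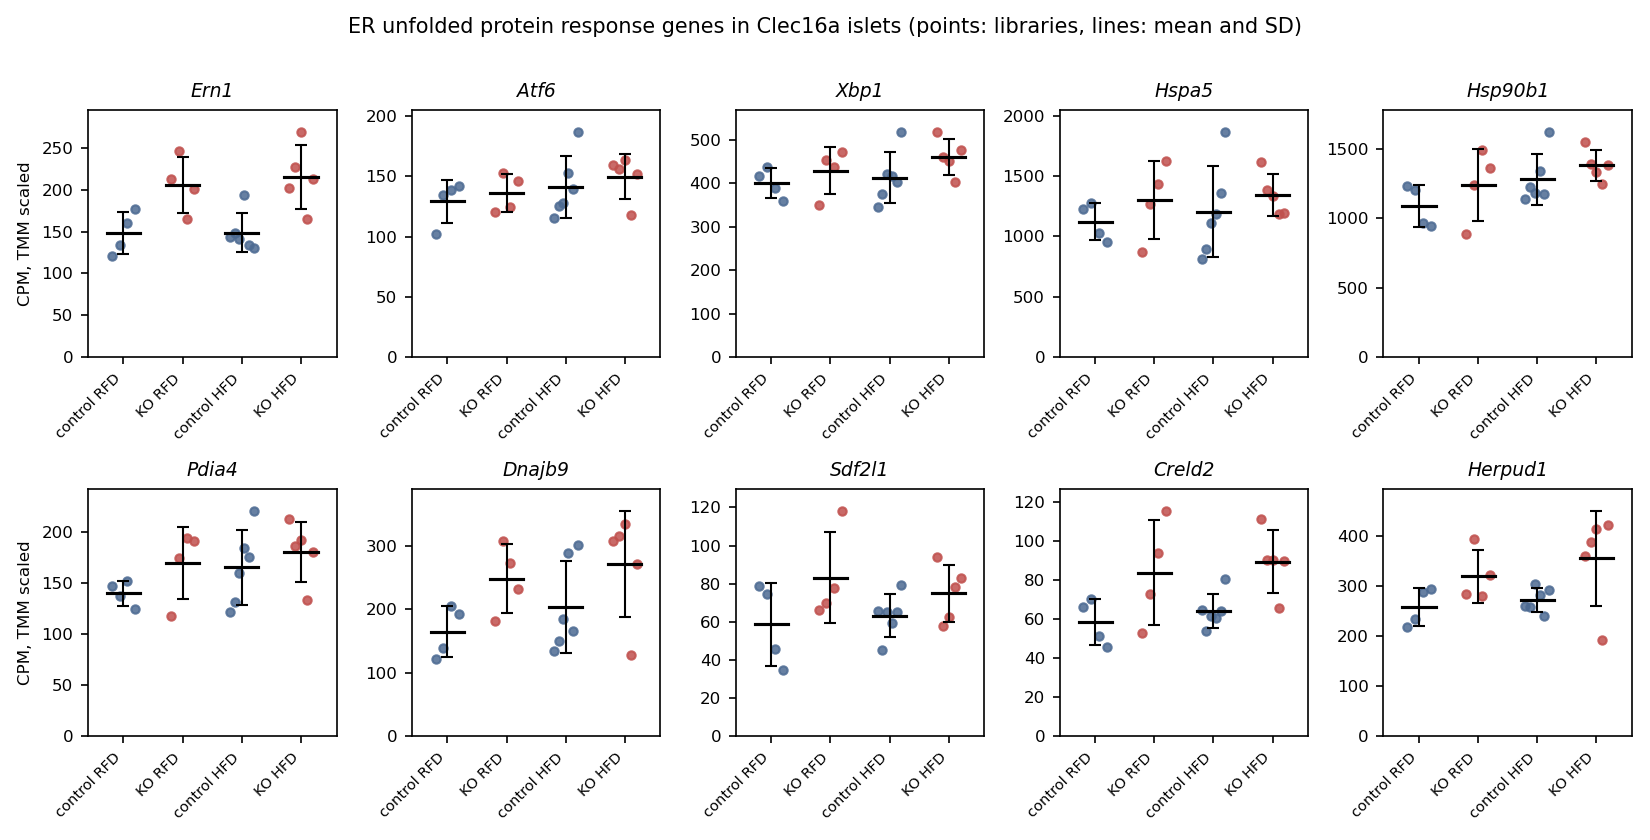
Each panel plots 1 gene in the Clec16a islets by genotype and diet, with TMM-scaled CPM on the y axis, points for libraries and black lines for the mean ± SD. Ern1 lies higher in the KO on each diet with an overlap of single libraries, and the low HFD KO point of Herpud1 is library 4 (192 CPM).

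The difference in the Clec16a effect between the diets was called for none of the 10 genes (0% of all genes), and neither was HFD against RFD in controls (0.0406%) or in the KO (0.0116%). DESeq2 called none in these 3 comparisons either, and the genes with an unadjusted p below 0.05 numbered 0 in each. Acinar markers, 11 of 11 detected, summed to 3370 to 23989 TPM in RFD KO and 8281 to 14719 in RFD controls, and to 19438 to 35515 in HFD KO and 15768 to 43932 in HFD controls. Single libraries of every Clec16a group were high in B-cell and plasma-cell markers, up to 3147 TPM in HFD KO library 1, while the lowest group maximum was 885 TPM. Endothelial markers, 7 of 7 detected, did not overlap on RFD (183 to 222 TPM in controls, 341 to 430 in the KO) and overlapped on HFD (170 to 261 and 210 to 510). Fibroblast or stellate markers, 5 of 5 detected, did not overlap on RFD (11.4 to 13.4 TPM in controls, 14.7 to 26.6 in the KO) or on HFD (17.2 the highest control, 17.3 the lowest KO). α-cell markers, 3 of 3 detected, did not overlap on HFD (48540 to 66330.5 TPM in controls, 67603 to 89292 in the KO). On RFD they overlapped (65283 to 110240 and 80279 to 176564). β-cell markers summed to 435496 to 491880 TPM in HFD controls and 313268 to 445754 in HFD KO. On RFD they summed to 381338 to 520038 and 335549 to 394814. Duct markers did not overlap on RFD (214 to 243 TPM in controls, 269 to 533 in the KO) and overlapped on HFD (196 to 270 and 232 to 391). Macrophage markers overlapped on RFD (491 to 664 and 423 to 620) and on HFD (425 to 723 and 471 to 837). The part of the endothelial, fibroblast, α-cell, β-cell, duct and macrophage sums in the results was not tested. With the acinar score as a covariate Creld2 was called on each diet. Of 26 folding genes 1 rose on RFD and 2 on HFD, near the share of all genes called higher (3.99% and 5.62%), with Fkbp11 named on each (1.22, SE 0.30, and 1.24, SE 0.25). Sel1l was called in the degradation list on each diet (0.47, SE 0.14, and 0.54, SE 0.12), and Derl3 on HFD (0.90, SE 0.24). Of 23 translocation genes 1 rose on RFD and 2 on HFD, and of 11 sensors and regulators tested none was called on either diet by edgeR or DESeq2, with an unadjusted p below 0.05 for 2 on RFD and 1 on HFD.

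The ATF4 branch was called in the Clec16a KO. Of its 25 genes 20 rose on RFD (median 1.03) and 20 on HFD (median 0.91), and none fell. Pycr1, a proline synthesis enzyme, rose by 1.99 (SE 0.31) and 2.0 (SE 0.26), Gdf15, a stress hormone, by 4.49 (SE 0.77) and 4.69 (SE 0.66), and Stc2 by 4.71 (SE 0.81) and 4.89 (SE 0.65). Ddit3 rose on HFD by 0.76 (SE 0.20, adjusted p = 0.0215, edgeR) and had 0.60 (SE 0.23, adjusted p = 0.132) on RFD. None of 14 mitochondrial proteases and chaperones was called on either diet by edgeR. An unadjusted p below 0.05 was reached by 2 on RFD and 4 on HFD, and DESeq2 called 0 and 1.

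In Mfn DKO liver the sensor genes Ern1 and Atf6 were called higher and none of the 10 lower, beside 5.23% higher and 4.64% lower of 17024 genes. In Tfam KO liver Ern1 and Atf6 rose and Pdia4 fell, beside 18.1% and 11.3% of all genes, so the counts in Tfam KO liver were near the share over all genes. Eif2ak3, the gene of the third sensor PERK, was called in neither knockout, with log2 changes of 0.05 (SE 0.14, adjusted p = 0.849, edgeR) in Mfn DKO and 0.34 (SE 0.15, adjusted p = 0.114) in Tfam KO. The 2 knockouts share their controls, so their values are given side by side.

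Ern1 ran from 62.5 to 88.9 CPM in the 6 control livers (median 69.3). It stood at 120, 116, 103 and 99.6 CPM in Mfn DKO and at 186, 101 and 89.4 in Tfam KO. All 7 knockout livers lay above all controls, the third Tfam KO library barely so. The log2 change was 0.60 in Mfn DKO (SE 0.18, adjusted p = 0.0499, edgeR) and 0.80 in Tfam KO (SE 0.19, adjusted p = 0.00982). Without Tfam KO library 1 the latter was 0.40 (adjusted p = 0.0614). The Mfn DKO call lay at the threshold and was lost when any 1 of its 10 libraries was left out, with changes from 0.56 to 0.67. That test took its spread from all 3 liver groups, not only from these 10 libraries. The SD of Ern1 was 9.26 CPM in controls, 9.70 in Mfn DKO and 52.5 in Tfam KO.

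Atf6 ran from 72.5 to 84.9 CPM in control livers (median 80.0), and stood at 122, 117, 133 and 88.3 in Mfn DKO and at 144, 127 and 79.2 in Tfam KO. Tfam KO library 3 alone lay within the control range. The log2 change was 0.53 in Mfn DKO (SE 0.15, adjusted p = 0.0475, edgeR) and 0.55 in Tfam KO (SE 0.17, adjusted p = 0.0269). The Mfn DKO call held in 1 of the 10 fits that left out 1 library, and the Tfam KO call in 5 of 9. Without Tfam KO library 1 the change was 0.37, and it was not called without control 1, control 3 or Tfam KO library 2 either. Xbp1, a target of both sensors' pathways, had log2 changes of -0.21 (SE 0.16) and -0.08 (SE 0.17) and was not called.

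Pdia4 ran from 167 to 274 CPM in control livers (median 204), stood at 171, 179, 170 and 154 in Mfn DKO and at 116, 102 and 190 in Tfam KO. The first 2 Tfam KO livers lay below all controls and the third among them. The log2 change was -0.67 in Tfam KO (SE 0.22, adjusted p = 0.0374, edgeR) and -0.36 in Mfn DKO (SE 0.20, adjusted p = 0.257). Without Tfam KO library 1 it was -0.57, without library 2 -0.50 and without library 3 -1.01. It was called in 4 of 9 fits that left out 1 library, and among the controls it was lost without number 3, 4 or 5.

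The other chaperone genes varied strongly among the control livers themselves. Creld2 ran from 24.3 to 134 CPM in controls (median 55.6), and stood at 24.2, 42.7, 30.6 and 30.5 in Mfn DKO and at 41.4, 24.4 and 40.8 in Tfam KO. The knockout livers lay in the lower part of the control range. Its log2 changes were -1.09 (SE 0.42, adjusted p = 0.113, edgeR) and -0.94 (SE 0.46, adjusted p = 0.141). Dnajb9 ran from 57.1 to 138 CPM in controls (median 94.6), stood at 59.7, 55.9, 57.8 and 43.3 in Mfn DKO and at 100.2, 53.5 and 58.9 in Tfam KO, with changes of -0.80 (SE 0.25, adjusted p = 0.0655, edgeR) and -0.41 (SE 0.28). Hspa5 ran from 662 to 1440 CPM in controls (median 921), and stood at 672, 889, 731 and 577 in Mfn DKO and at 1346, 1143 and 878 in Tfam KO. Its changes were -0.48 (SE 0.23) and 0.17 (SE 0.25), neither called, and every knockout liver but 1 lay inside the control range.

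Hsp90b1 had log2 changes of -0.44 (SE 0.21) in Mfn DKO and -0.59 (SE 0.24, adjusted p = 0.0758, edgeR) in Tfam KO. Herpud1, at the top of the order in control liver with Hspa5 by TPM, had -0.33 (SE 0.29) and -0.71 (SE 0.33, adjusted p = 0.118), with 1 Tfam KO library at 140 CPM and the others at 411 and 472. Sdf2l1 had -0.54 (SE 0.41) and -0.71 (SE 0.45). None of these was called. Without Tfam KO library 3, 6 genes were called in Tfam KO liver: Ern1 and Atf6 higher and Pdia4, Hsp90b1, Herpud1 and Sdf2l1 lower. Without library 1 none was, and without library 2 or control 3 there was 1. Calls over all genes were not counted in these fits.

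**Figure D4:**
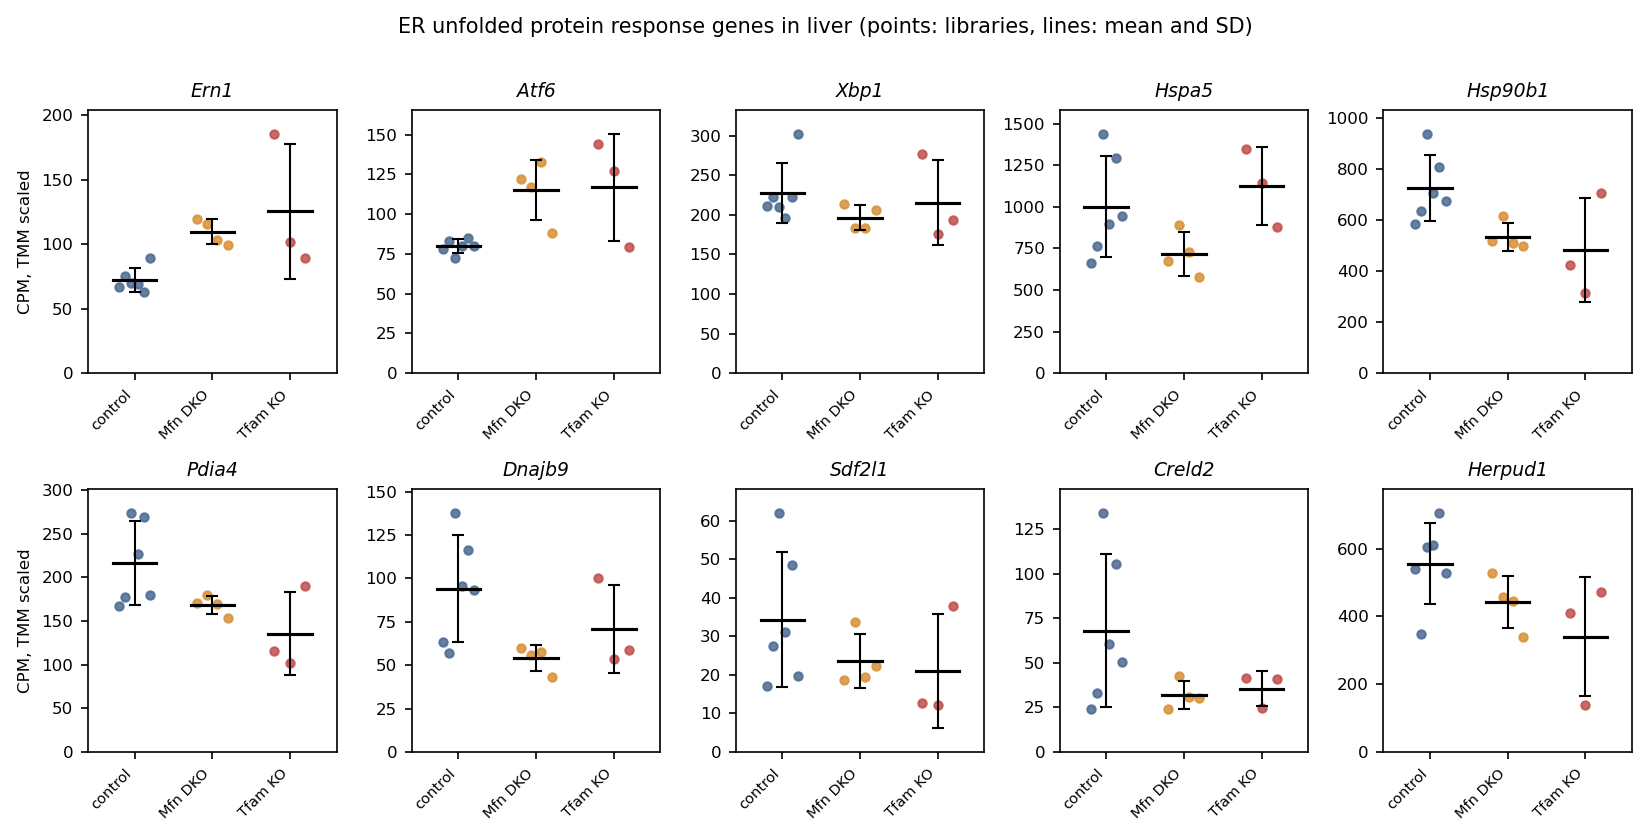
Each panel plots 1 gene in liver, with TMM-scaled CPM on the y axis, points for libraries and black lines for the mean ± SD. Ern1 is higher in all 7 knockout livers (89.4 to 186 CPM) than in the 6 controls (62.5 to 88.9 CPM), and the chaperone genes spread widely among controls, as Creld2 does from 24.3 to 134 CPM.

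B-cell and plasma-cell markers, 5 of 5 detected, summed to 64.5 to 190 TPM in control livers, 141 to 308 in Mfn DKO and 263 to 337 in Tfam KO. With their score as a covariate 5 genes were called in Mfn DKO, all lower (Pdia4, Hsp90b1, Dnajb9, Creld2 and Sdf2l1), while Ern1 and Atf6 were not called. The same covariate gave 7 calls in Tfam KO, with Ern1 and Atf6 higher and Pdia4, Hsp90b1, Herpud1, Creld2 and Sdf2l1 lower. Of all 17024 genes, 1452 were called with the covariate in Mfn DKO and 5309 in Tfam KO, beside 1681 and 4992 without it. The marker sums of Tfam KO and control livers did not overlap, so marker level and genotype cannot be told apart there. Hepatocyte markers summed to 93182 to 137010 TPM in controls, 90197 to 110830 in Mfn DKO and 40425 to 112213 in Tfam KO. Fibroblast or stellate markers, 5 of 5 detected, summed to 63.4 to 92.9 TPM in controls, 100.1 to 120 in Mfn DKO and 102 to 126 in Tfam KO, with no overlap between controls and knockouts. Endothelial markers, 7 of 7 detected, summed to 151 to 197 TPM in controls, 189 to 295 in Mfn DKO and 217 to 396 in Tfam KO. Duct or biliary markers summed to 36.5 to 83.7 TPM in controls, 80.3 to 155 in Mfn DKO and 46.3 to 293 in Tfam KO. Macrophage markers summed to 507 to 1109 TPM in controls, 846 to 1633 in Mfn DKO and 556 to 1270 in Tfam KO. The part of the hepatocyte, fibroblast, endothelial, duct and macrophage sums in the results was not tested. Xist exceeded 100 CPM in 3 of 6 control, 2 of 4 Mfn DKO and 2 of 3 Tfam KO livers. The labels give no sex for the livers, and the main liver fit had no term for sex or Xist. Within the libraries with high Xist, Ern1 differed by 0.68 in Mfn DKO and 0.51 in Tfam KO, and within the others by 0.54 and 1.28. Atf6 differed by 0.36 and 0.35 with high Xist and by 0.67 and 0.84 with low Xist, where Tfam KO has 1 library. Pdia4 differed in Tfam KO by -0.88 with high and -0.60 with low Xist. Hspa5 differed there by -0.25 and 0.78, Xbp1 by -0.18 and 0.19, Dnajb9 by -1.04 and 0.53, and Creld2 by -1.59 and 0.26. Hsp90b1, Sdf2l1 and Herpud1 were below 0 on each side in Tfam KO. In Mfn DKO Dnajb9 differed by -1.23 with high and -0.25 with low Xist, Creld2 by -1.40 and -0.34 and Herpud1 by -0.70 and 0.07. The remaining genes kept their sign in Mfn DKO.

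Of the folding list none rose and 2 fell in Mfn DKO liver, and 2 rose and 3 fell in Tfam KO liver (medians -0.22 and -0.31, beside 0.02 and 0.03 over all genes). Of all genes 5.23% rose and 4.64% fell in Mfn DKO, and 18.1% rose and 11.3% fell in Tfam KO, so the falls in the folding list of Tfam KO were near that share. Cnpy2 fell in Mfn DKO (-0.60, SE 0.14), while in Tfam KO Ero1l rose by 1.35 (SE 0.27) and Dnajc10, an ER reductase, by 1.06 (SE 0.23). The degradation list had 1 rise and 1 fall in Mfn DKO and 1 rise and 4 falls in Tfam KO. Derl1, a channel component, rose in each (0.62, SE 0.15, and 0.60, SE 0.17), and Os9, a lectin, fell in each (-0.40, SE 0.11, and -0.56, SE 0.12). Sec62, of the translocation list, fell in each (-0.59, SE 0.14, and -0.74, SE 0.16). Among sensors and regulators Mbtps2 rose in each (0.75, SE 0.19, and 1.17, SE 0.20), while Creb3l3, a liver transcription factor cleaved like ATF6, fell in each (-0.74, SE 0.11, and -1.01, SE 0.12). In the ATF4 branch 15 of 25 genes rose in Mfn DKO (median 1.64) and 21 in Tfam KO (median 3.15), and none fell. Trib3 rose by 4.22 (SE 0.34) and 5.43 (SE 0.36), Nupr1 by 5.18 (SE 0.51) and 7.12 (SE 0.56), and Ddit3 by 1.64 (SE 0.40) and 3.15 (SE 0.43). Lonp1 rose by 1.81 (SE 0.20) and 1.95 (SE 0.22), and the mitochondrial list had 3 and 6 rises with no fall.

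Tfam KO against Mfn DKO liver gave no call among the 10 genes (0.294% of all genes), by edgeR or DESeq2, and 1 gene had an unadjusted p below 0.05, Hspa5 at 0.65 (SE 0.27, adjusted p = 0.211). The effect of Tfam KO in islets minus that in liver was called for none of them either (18.5% of all genes), by edgeR or DESeq2. The largest difference among the genes was that of Herpud1, 0.87 (SE 0.34, adjusted p = 0.0822, edgeR), with log2 changes of 0.18 in islets and -0.71 in liver. Ern1 differed by 0.21 (SE 0.21) between the tissues. Tissue, experiment and way of targeting cannot be told apart in this comparison.

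**Figure D5:**
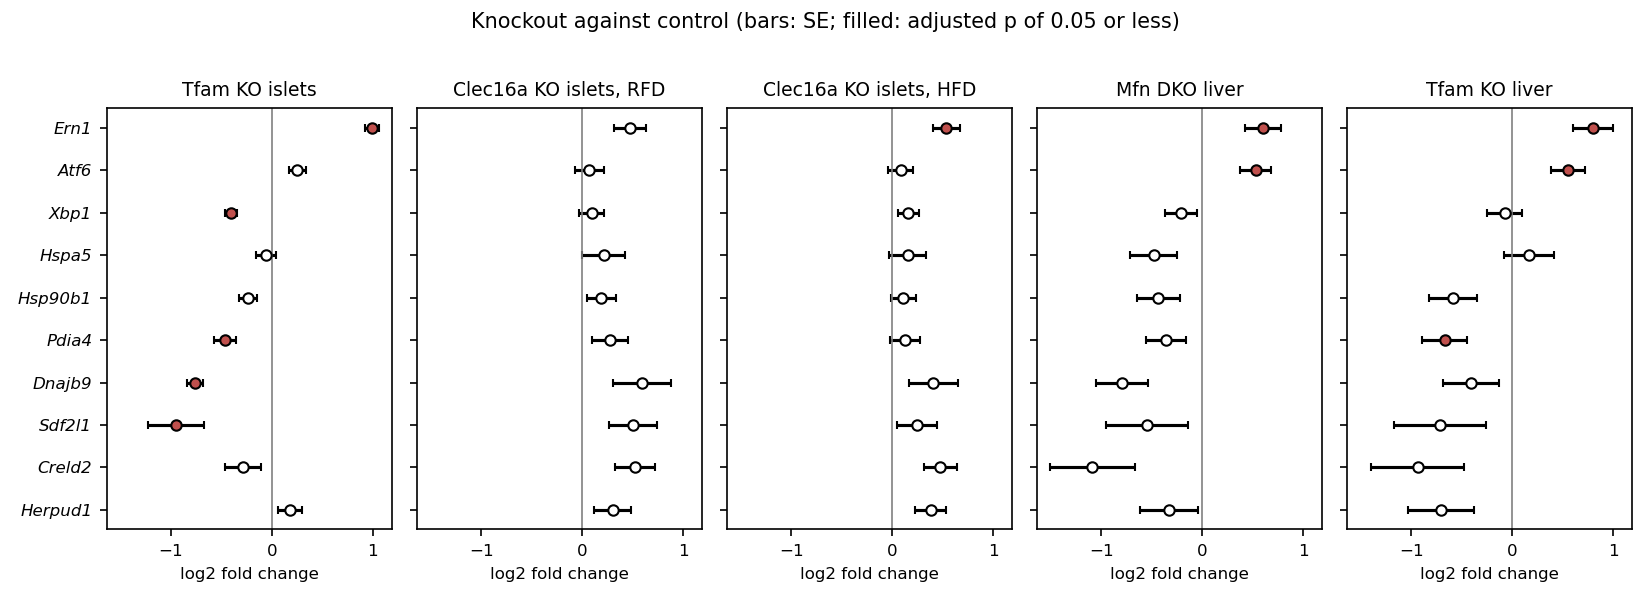
Each panel is 1 knockout against its controls, with the log2 fold change on the x axis, bars for the standard error and filled points for called genes (adjusted p not above 0.05). Ern1 lies right of 0 in all 5 panels (0.48 to 0.99) and is filled in 4 of them, while Hspa5 is open in all 5.

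Within groups the chaperone genes varied together from library to library. Over the 46 libraries, as deviations from the group means, Pearson's r with the mean of the other 9 genes was 0.78 for Pdia4, 0.77 for Dnajb9, 0.74 for Hspa5, 0.73 for Creld2 and 0.65 for Hsp90b1. It was 0.44 for Xbp1, 0.40 for Herpud1, 0.38 for Sdf2l1, 0.27 for Atf6 and 0.14 for Ern1. Ern1, called in the most comparisons, followed the others least. Among 14504 genes tested in all 3 experiments, the 10 most like the mean of the ER response genes, leaving out those genes themselves, were Hspa13 (r = 0.87), Mcfd2 (0.86), Spcs2 (0.86), Manf (0.86), Dnajb11 (0.85), Sec23b (0.84), Preb (0.83), Mogs (0.82), Trabd (0.82) and Ddx50 (0.82). Libraries share depth and scaling factors, and these values are descriptions with no p.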

How the data were processed

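RNA was measured in 46 mouse libraries in 11 groups by paired-end sequencing. The deposited tables hold raw counts per gene, which were tested, and the authors' TPM, used for levels between genes, and CPM, used to check the columns. The submitters' processing notes name FastQC, STAR 2.6.1b, RSEM 1.3.1, featureCounts, MultiQC, DESeq2 and GRCm38 without saying which tool made which column. The 10 genes and all lists were chosen with earlier results of these data known. Of 55487 identifiers 55141 are in GENCODE M21.

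Each of 3 experiments (Tfam islets, Clec16a islets, livers) was fitted alone in R 4.3.3 with edgeR 4.0.16: filterByExpr by group, TMM scaling and the quasi-likelihood test, over 13 comparisons. The islet-minus-liver comparison used both Tfam experiments. The Tfam islets had a sex term. Calls needed a Benjamini-Hochberg adjusted p of at most 0.05 over all genes tested. The standard error is the log2 fold change divided by the square root of the F statistic. CPM printed here are TMM-scaled. Alternatives were DESeq2 1.42.0 size factors and Wald test, other filters, covariates, a replicate block and leaving out each library.

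Named in the text are the 10 genes, the targeted genes, Ddit3, Eif2ak3, per list at most the 3 called genes lowest in adjusted p, and, outside the 10 themselves, the 10 genes most correlated with their mean. Whether same-numbered samples pair is not known. The median correlation of their deviations from group means was 0.0653 over 6 same-numbered pairs in the Tfam islets (-0.096 to 0.212). It was -0.0163 over 25 in the Clec16a islets (-0.253 to 0.307) and 0.0873 over 10 in the livers (-0.343 to 0.350). Differently numbered samples were not compared, so these values do not decide it.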

Additional observations from a re-analysis of the deposited data

Results flagged for a closer look

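Of 80 sets of values (1 gene in 1 group of 4 to 10 libraries) 7 held a library far from the others by Dixon's criterion, which chance alone meets in about 1 set of 20. HFD Clec KO library 4 was low for Atf6 (118 CPM, nearest 152) and for Herpud1 (192 CPM, nearest 359). Female Tfam control 4 was low for Atf6 (128 CPM, nearest 190), and female Tfam KO library 1 was low for Sdf2l1 (54.7 CPM, nearest 92.1). HFD Clec control 4 was high for Ern1 (194 CPM, nearest 149). In liver, Mfn DKO library 2 was high for Hsp90b1 (616 CPM, nearest 515) and control 6 was high for Xbp1 (303 CPM, nearest 222).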

How the results depend on the processing

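Of the 17 called values of the 10 genes, none changed sign in 392 alternatives and 55 of these alternatives ended a call. Of 113 uncalled values 27 were called in some alternative. Without TMM and with the B-cell and plasma-cell score are alternatives chosen after seeing the data. Genes called in Tfam islets numbered 3 with that score in place of 5, beside 2440 in place of 4119 over all 19752 genes. In females there were 6 without a filter, 5 with at least 10 counts in every library and 5 by DESeq2's Wald test in place of 3, and in males 5 when only the compared groups were fitted. Calls over all genes were 2057 of 34333, 2179 of 15531 and 2957 of 19752 in females, where the main fit called 2142 of 19752. For males they were 2277 of 18835 in place of 1764 of 19752. On RFD there was 1 by the Wald test, 1 with the acinar score and 1 with a lane term in place of 0. Among all 17254 genes these fits called 1843, 1868 and 1081 in place of 1298. On HFD there were 2 each by the Wald test, with the acinar score, without TMM and with only the compared groups, in place of 1. The same fits called 2128, 1920 and 2127 of 17254 genes and 1144 of 16292, in place of 1652 of 17254. In Mfn DKO liver there were 1 with DESeq2 size factors, 0 without a filter, 4 by the Wald test, 5 with the B-cell and plasma-cell score and 4 with only the compared groups, in place of 2. Counts over all genes were, in that order, 1693 of 17024, 1148 of 31126, 2870 of 17024, 1452 of 17024 and 4338 of 16080. The main fit there called 1681 of 17024. Tfam KO liver gave 7 with that score in place of 3, and islets minus liver gave 1 without TMM in place of 0. Beside these stood 5309 in place of 4992 of all 17024 genes, and 5006 in place of 3895 of 21096. The cause was not tested.

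With the replicate block, whose numbers are not known to pair the samples, 0 genes were called on HFD, 0 in Mfn DKO liver and 0 in Tfam KO liver. The block also lowered the calls over all genes. They numbered 975 of 17254 on HFD, and 169 in Mfn DKO and 395 in Tfam KO of 17024, in place of 1652, 1681 and 4992. ATF4 genes called fell to 6 in Mfn DKO and 12 in Tfam KO. Folding genes called with the block numbered 1 on HFD, 0 in Mfn DKO and 0 in Tfam KO. Other counts of folding genes that moved by over 1.5 times were 7 in Tfam islets without TMM and 7 with the B-cell and plasma-cell score, 2 on RFD by the Wald test and 2 with only the compared groups, on HFD 1 without a filter, 4 by the Wald test and 5 without TMM, in Mfn DKO 1 without a filter, 1 without TMM and 8 with only the compared groups, and in Tfam KO liver 12 with the score and 3 with only the compared groups. Calls over all genes were 6825 in Tfam islets without TMM and 1470 on RFD with only the compared groups. They were 1450 on HFD without a filter, 2009 in Mfn DKO without TMM and 3228 in Tfam KO liver with only the compared groups. Those of the other fits are given above.

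Leaving out 1 library gave 4 to 6 called genes in Tfam islets, 3 to 5 in females, 2 to 3 in males, 0 to 1 on RFD, 0 to 3 on HFD, 0 to 1 in Mfn DKO liver, 0 to 6 in Tfam KO liver, 0 to 1 for Tfam KO against Mfn DKO and 0 to 3 for islets minus liver. Females gave 5 without control 1 or 2. RFD gave 1 without KO library 1 or 3. The call of Tfam KO against Mfn DKO came without Tfam KO library 3. Islets minus liver gave 1 without control liver 2, 1 without Tfam KO liver 1 and 3 without Tfam KO liver 3. ATF4 genes called on RFD ranged from 12 to 19, and folding genes from 0 to 1 on RFD, 1 to 5 on HFD, 0 to 3 in Mfn DKO and 3 to 14 in Tfam KO liver. Calls over all genes were not counted in the fits that left out 1 library. These ranges therefore do not tell a change in the listed genes from a change in calls over all genes. With 2 to 6 libraries in a group, small differences could not be resolved.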
